A study of Mus musculus with 27 samples.

Results

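The regions described here are the accessible regions at the mouse genes of the 3 reprogramming factors themselves, Gata4, Mef2c and Tbx5. They are defined by position, as all counted regions overlapping an mm9 window of 150 kb around Gata4 (chr14:63800000-63950000), 350 kb around Mef2c (chr13:83550000-83900000) and 200 kb around Tbx5 (chr5:120200000-120400000). Members were chosen with earlier results of these data known. These windows held 18 of the 30815 regions in the table, 12 at Gata4, 5 at Mef2c and 1 at Tbx5. Regions are numbered along each window by increasing coordinate. Of the 18, 14 passed the filter on low counts and were tested (9, 4 and 1), among 20494 regions tested in all.

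Accessible chromatin was profiled by ATAC-seq, which uses a transposase to cut and tag open DNA, in a Cd-1 line of neonatal cardiac fibroblasts from mice with an alpha-MHC-GFP reporter, immortalised with large T antigen. Cells received retroviruses and were taken unsorted at day 2, with 3 libraries in each of 8 groups. The viruses carried Gata4 in group G, Mef2c in M, Tbx5 in T, a pair of these in GM, GT and MT, and all 3 in GMT. All 7 factor groups were cultured with sb431542 and xav939, inhibitors of TGF-beta and Wnt signalling. The control group received dsRed, a red fluorescent protein, and no inhibitors, so in comparisons with the control the factors and the inhibitors cannot be told apart. The 3 samples labelled as dsRed with both inhibitors are not analysed here. All groups share 1 immortalised line, so they model no range of cell sources. Replicates are labelled biological, but cultures or animals are not named, so p-values measure only the spread between these libraries, which may be technical. Since cells were unsorted, more cells with an open site and a more open site in each cell cannot be told apart.

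Gata4 is a zinc-finger protein that binds GATA motifs, Mef2c a MADS-box protein, and Tbx5 a T-box protein. Together they drive fibroblasts towards a cardiomyocyte-like state, and in heart development they act on many of the same genes, including genes of one another. A virus carries only the cDNA of a factor, without introns, but reads from it align to the exons of the mouse gene. Higher counts at an exon in cells with the virus can therefore come from the viral cDNA, from the chromosomal gene or from both, and counts alone cannot tell these apart. No annotation of mm9 was used, so no region was placed on an exon, intron or promoter. In RefSeq's annotation of GRCm38.p6 the genes are 72.8 kb (Gata4), 163 kb (Mef2c) and 88.7 kb (Tbx5) long, shorter than their windows. The next protein-coding genes there are Neil2 and Blk for Gata4, Cetn3 and Tmem161b for Mef2c, and Tbx3 and Rbm19 for Tbx5. For the same reason marker genes of the fibroblasts and other genes of the cardiac network were not checked.

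The RefSeq promoter table holds 3 transcript starts of Mef2c and was matched for that gene alone of the 3. The 250 bases before each start were searched on both strands for GATAA, for the T-box motif AGGTGT and for the MEF2 consensus. Of 32851 promoters of that length, 22.6% held GATAA, 11.8% AGGTGT and 1.69% the MEF2 consensus. Only the second Mef2c start, shown here because it was the one of the 3 with any match, held GATAA (2 times) and AGGTGT (1 time), none overlapping another and none the MEF2 consensus. Matches are in capitals, the build is GRCm38.p6 and the strand is plus, at chr13:83523406-83523655.
Mef2c promoter 2: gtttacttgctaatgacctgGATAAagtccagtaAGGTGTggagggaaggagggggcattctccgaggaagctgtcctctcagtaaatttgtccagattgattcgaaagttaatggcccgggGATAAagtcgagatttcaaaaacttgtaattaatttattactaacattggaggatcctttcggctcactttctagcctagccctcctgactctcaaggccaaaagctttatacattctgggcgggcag
A match describes letters only, and none of the counted regions was placed on this promoter.

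The shallowest library (GMT replicate 1) had 241394 counts and the deepest (MT replicate 1) 1704896, around a median of 661976, so weakly open regions rest on a handful of counts in the shallow libraries. Levels are given as CPM, counts relative to the size of their library, scaled between libraries by the TMM method. The library labelled GT replicate 1 correlated more with the G libraries than with the other GT libraries. Across the 20494 regions tested its Spearman correlations were 0.824 to 0.941 with the 3 G libraries and 0.722 and 0.730 with the other GT libraries. Such values for other libraries are not given here, and depth differed between libraries. Regions are not independent replicates, and these values are a description. The library was kept. Over the 266 pairs of a tested region and a comparison, leaving it out changed 2 calls, both at Tbx5 region 1, and moved 4 values by over 1.5 times, all at Mef2c region 5. Values without it are given at these regions. The map of levels shows all 18 regions in all 24 libraries.

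**Figure D1:**
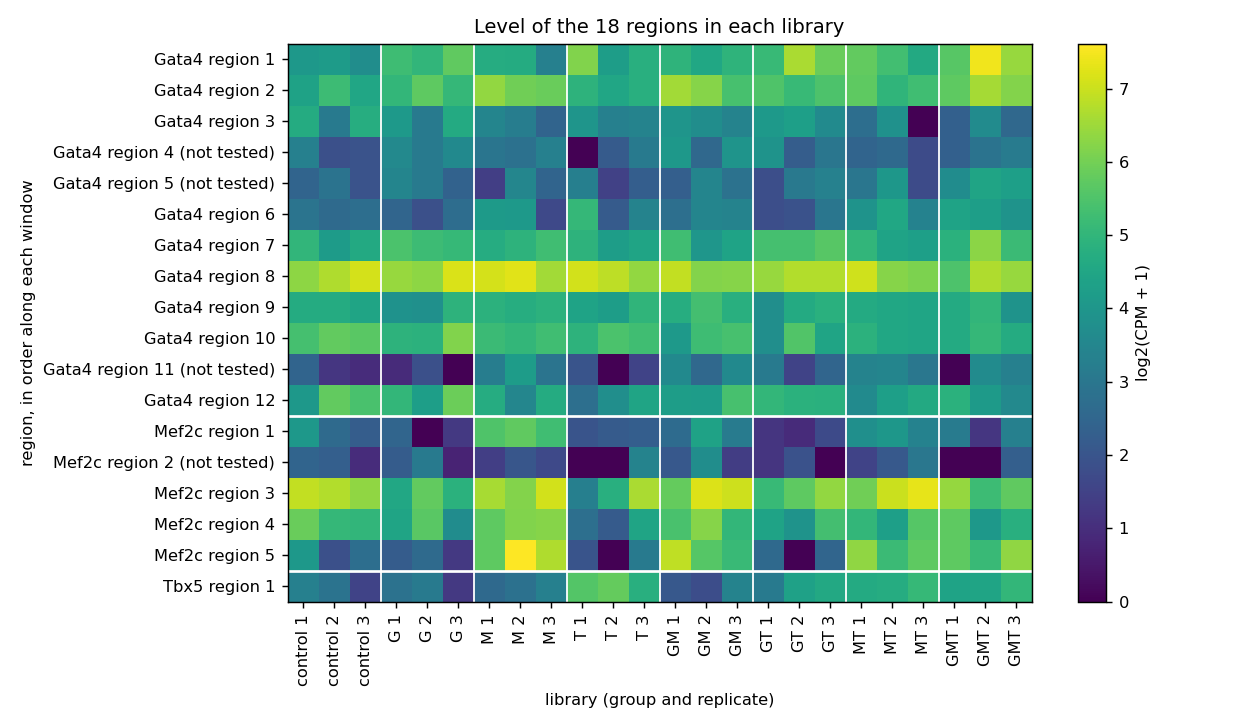
Level of each of the 18 regions (rows, in order along each window) in each of the 24 libraries (columns, by group and replicate), as log2(CPM + 1). Gata4 region 8 was bright in every library, Mef2c region 5 in the libraries with Mef2c only, and Tbx5 region 1 in the libraries with Tbx5 except GT replicate 1.

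The Gata4 window was dense. Its 12 regions in 150 kb compare with a median of 1 in 17102 tiles of the same width, of which 40 (0.234%) held 12 or more. The Mef2c window, with 5 regions in 350 kb, and the Tbx5 window, with 1 in 200 kb, were matched or exceeded by 37.7% and 68.1% of tiles of their own width. Gata4 regions 5 to 9 lay close together, between 63861036 and 63865151, with gaps of 231 to 1634 bp. Among all 18 regions, Gata4 region 8 (chr14:63864066-63864315) had the highest level per length, 402.5 CPM per kb averaged over the 24 libraries, ahead of Mef2c region 3 with 254.2 CPM per kb. The lowest was Mef2c region 2 with 15.66 CPM per kb.

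The question asked first of each window was whether it followed its own factor. Adding a factor was measured as the mean of 3 differences, each between groups that all had the inhibitors: for Gata4, GM against M, GT against T and GMT against MT, and likewise for Mef2c and Tbx5. Regions with an adjusted p below 0.05 in edgeR's quasi-likelihood test (Benjamini-Hochberg over all regions tested) are called higher or lower, and log2 fold changes are given ± SE. Adding Mef2c raised all 4 tested regions of the Mef2c window, where 16.2% of all regions tested were higher and 20.8% were called in either direction. Adding Tbx5 raised the 1 region of the Tbx5 window (20.3% of all regions were higher, 26.2% called). With Gata4, 1 of 9 tested regions of its own window was higher and none lower (15.0% higher, 22.2% called), a share near that of all regions. Their median log2 fold change was 1.45 for Mef2c at its window and 0.46 for Gata4 at its window, beside -0.05 and -0.02 over all regions tested. Mef2c regions 1 and 5 and Tbx5 region 1 passed the filter mainly through the libraries with their own factor. At or above the 15.1 CPM that the filter asks of 3 libraries were 13 libraries at Mef2c region 5, 12 of them with Mef2c, 5 at Mef2c region 1, 4 of them with Mef2c, and 11 at Tbx5 region 1, all with Tbx5. These regions could be tested only because they were high there, so these counts and medians are a description. For the mean addition of their own factor, and for the calls at Mef2c region 1, values without the filter are also given below. That fit tested every region with a count. It cannot undo a choice made when the regions were defined, which is not described in the sources used here. A region may be in the table because it was high with its factor, so these p-values carry that limit too. Other tests of these regions below are from the fit with the filter alone, and each call among them was kept without it.

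**Figure D2:**
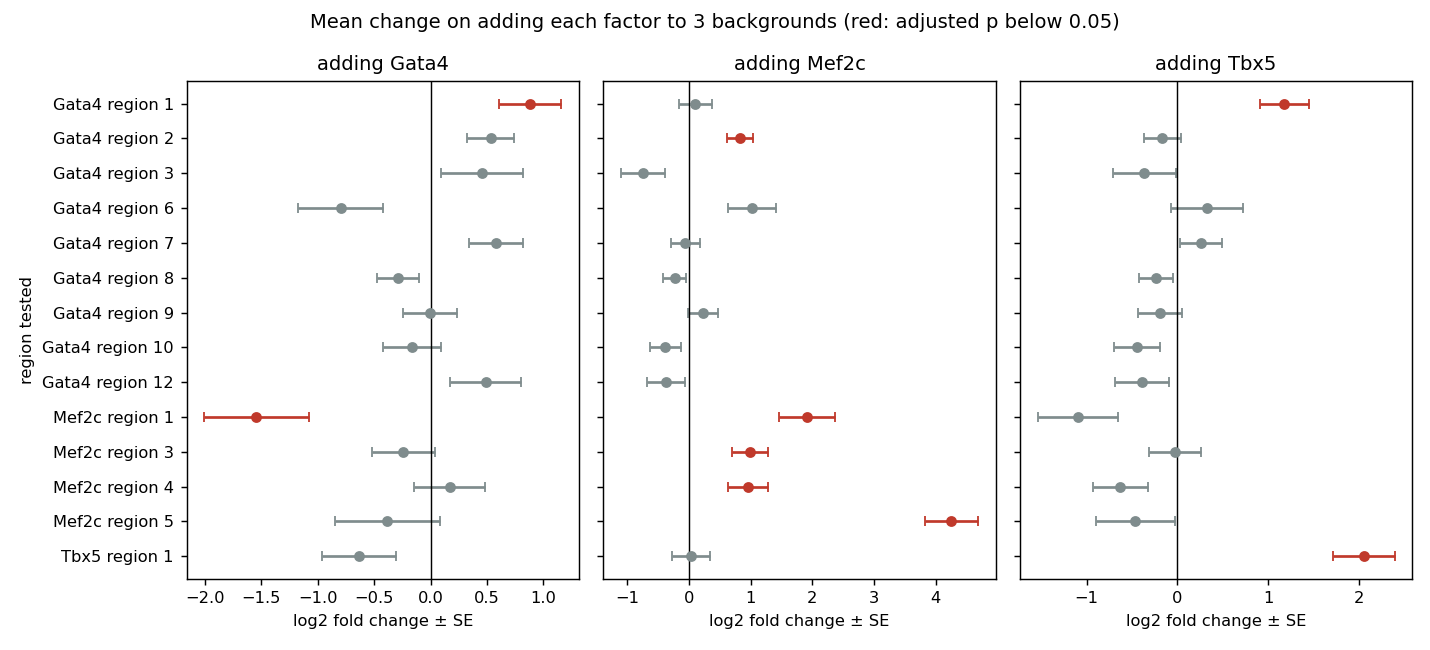
Mean log2 fold change ± SE on adding Gata4, Mef2c or Tbx5 to 3 backgrounds (panels), for the 14 tested regions (rows), with called regions in red. All 4 regions of the Mef2c window were called higher in the Mef2c panel, whereas in the Tbx5 panel the called regions were Gata4 region 1 and Tbx5 region 1.

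Mef2c region 5 (chr13:83802070-83802270, 201 bp) followed the Mef2c label in all 24 libraries. In the libraries with Mef2c its levels were 51.8, 194 and 104 CPM in M, 116, 47.2 and 34.7 CPM in GM, 80.0, 35.4 and 51.8 CPM in MT, and 52.2, 34.8 and 80.3 CPM in GMT. Without Mef2c they were 15.6, 2.61 and 5.67 CPM in the control, 3.63, 5.19 and 1.41 CPM in G, 2.93, 0 and 7.60 CPM in T, and 5.05, 0 and 4.60 CPM in GT. The lowest of the 12 libraries with Mef2c, GM replicate 3 at 34.7 CPM, thus lay above the highest of the 12 without it, control replicate 1 at 15.6 CPM, and the ranges did not overlap. Of all regions tested, 238 (1.16%) were separated by the Mef2c label in this direction. Raw counts were 13 to 188 per library with Mef2c and 0 to 7 without. GT replicate 1, with 4 counts, was low as its label says, but G and GT both lack Mef2c, so this region cannot check its Tbx5 label.

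Adding Mef2c changed Mef2c region 5 by a log2 fold change of 4.26 ± 0.43 (adjusted p = 8.03e-09), or 19.1-fold, and by 4.20 ± 0.41 (adjusted p = 2.48e-10) without the filter. Taken singly, the change was 4.51 ± 0.71 on G (adjusted p = 0.000152), 3.96 ± 0.78 on T (adjusted p = 0.00188) and 4.30 ± 0.76 on GT (adjusted p = 0.00057), where 7.27%, 6.46% and 6.96% of all regions tested were called. Without GT replicate 1 the change on GT was 5.17 ± 0.97 (adjusted p = 0.00196) and the mean of the 3 additions 4.55 ± 0.46 (adjusted p = 5.30e-09). The other values that this library moved were not called with or without it, namely GT against the control (-1.30, and -2.18 without it), Gata4 added to T (-0.35, and -1.23) and Tbx5 added to G (-0.07, and -0.95). M alone had the highest mean, 117 ± 72.1 CPM (SD, n = 3), followed by GM with 65.9 ± 43.6 CPM, GMT with 55.8 ± 22.9 CPM and MT with 55.7 ± 22.6 CPM. Neighbours in this order were not called different, with a log2 fold change of -0.79 ± 0.50 from M to GM (adjusted p = 0.439), -0.28 ± 0.52 from GM to GMT (adjusted p = 0.778) and -0.02 ± 0.52 from MT to GMT (adjusted p = 0.994). From M to MT it was -1.05 ± 0.51, with an unadjusted p of 0.0472 and an adjusted p of 0.196 in edgeR's test. Against the control, whose mean was 7.96 ± 6.79 CPM, it was 4.06 ± 0.64 in M (adjusted p = 5.03e-05), 3.27 ± 0.65 in GM (0.00133), 3.01 ± 0.65 in MT (0.00106) and 2.99 ± 0.66 in GMT (0.000969). Each of these 8 calls held under all 31 alternatives, which included leaving out each library in turn. Whether reads of the viral Mef2c cDNA contribute to this region was not tested.

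Tbx5 region 1 (chr5:120321192-120321392, 201 bp), the only region of its window, followed the Tbx5 label in every library but GT replicate 1. With Tbx5 the levels were 46.9, 55.6 and 26.6 CPM in T, 24.1, 25.3 and 33.0 CPM in MT, 20.1, 20.6 and 31.7 CPM in GMT, and 7.58, 19.6 and 23.0 CPM in GT. Without Tbx5 they were 8.91, 6.51 and 1.89 CPM in the control, 6.34, 7.79 and 1.41 CPM in G, 5.01, 6.21 and 8.87 CPM in M, and 3.29, 2.48 and 9.48 CPM in GM. The 7.58 CPM of GT replicate 1, from 6 counts, lay inside the range of the libraries without Tbx5, which reached 9.48 CPM. The other 11 libraries with Tbx5 started at 19.6 CPM and did not overlap with it. With that library left out, 3.42% of all regions tested were separated by the Tbx5 label in this direction, against 0.327% with it. That level lay within the ranges of G (1.41 to 7.79 CPM), the control (1.89 to 8.91 CPM), M (5.01 to 8.87 CPM) and GM (2.48 to 9.48 CPM). These 4 groups therefore cannot be told apart for this library here. Its genome-wide correlations were taken with the G and GT libraries only, and its identity was not tested.

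On adding Tbx5, Tbx5 region 1 rose by a log2 fold change of 2.06 ± 0.34 (adjusted p = 1.74e-05), or 4.16-fold. It was 2.00 ± 0.34 (adjusted p = 1.72e-05) without the filter and 2.18 ± 0.33 (adjusted p = 1.74e-06) without GT replicate 1. The single additions gave 2.02 ± 0.57 on M (adjusted p = 0.0157), 2.30 ± 0.59 on GM (adjusted p = 0.0078) and 1.84 ± 0.60 on G (adjusted p = 0.095), where 12.5%, 13.7% and 2.99% of all regions were called. Without GT replicate 1 the change on G was 2.21 ± 0.60 (adjusted p = 0.0129), and GT against the control moved from 1.64 ± 0.61 (adjusted p = 0.0547) to 2.01 ± 0.61 (adjusted p = 0.018). The latter was also called without G replicate 3 (1.63, adjusted p = 0.0457). The order of the group means was T with 43.0 ± 14.9 CPM, MT with 27.5 ± 4.80 CPM, GMT with 24.1 ± 6.57 CPM and GT with 16.7 ± 8.09 CPM (SD, n = 3), or 21.3 ± 2.40 CPM (SD, n = 2) without GT replicate 1. The 4 groups without Tbx5 had 5.08 to 6.70 CPM. Differences between neighbours in this order missed the threshold, at -0.67 ± 0.48 from T to MT (adjusted p = 0.444), -0.11 ± 0.49 from MT to GMT (adjusted p = 0.948) and 0.61 ± 0.51 from GT to GMT (adjusted p = 0.521, and 0.24 with adjusted p = 0.874 without GT replicate 1). From T to GT the change was -1.39 ± 0.50 (adjusted p = 0.0612), and -1.02 ± 0.51 (adjusted p = 0.273) without that library. Against the control, T was higher by 3.03 ± 0.58 (adjusted p = 0.000242), MT by 2.36 ± 0.58 (0.00345) and GMT by 2.25 ± 0.59 (0.00437). Without control replicate 3 the last 2 had adjusted p = 0.0555 and 0.0586. The addition to M had adjusted p = 0.10 without M replicate 1 and 0.101 without M replicate 2, and that to GM 0.0786 without GM replicate 1 and 0.0645 without GMT replicate 3. Counts were low here, 5 to 38 per library with Tbx5 and 1 to 7 without. Whether viral Tbx5 cDNA contributes was not tested.

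**Figure D3:**
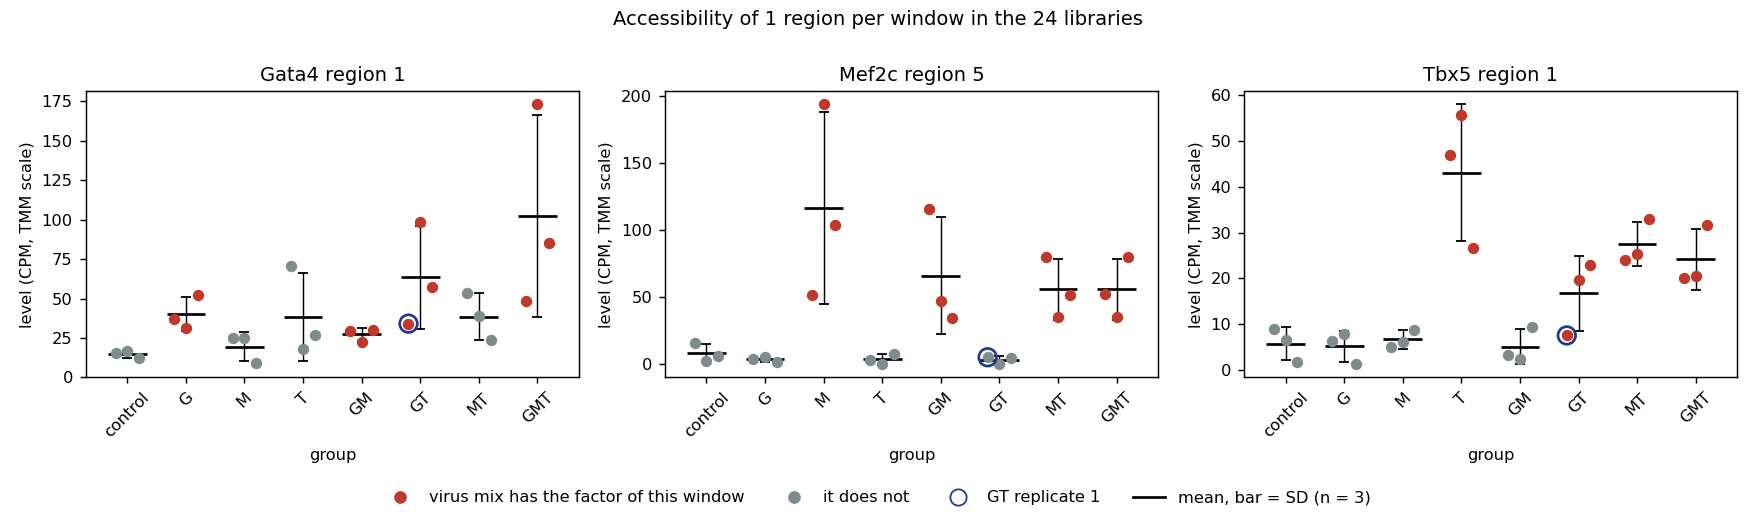
Level (CPM, TMM scale) of 1 region per window in each library, by group, with the mean and SD of 3 libraries. Red points are libraries whose virus mix has the factor of that window, grey points those without it, and the blue ring marks GT replicate 1. Red and grey do not overlap for Mef2c region 5, overlap only at GT replicate 1 for Tbx5 region 1, and overlap widely for Gata4 region 1.

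In the Gata4 window no region separated the 12 libraries with Gata4 from the 12 without, with or without GT replicate 1, where 0.312% and 0.317% of all regions tested did so with Gata4 higher and 0% lower. The region with the strongest evidence for its own factor was Gata4 region 1 (chr14:63813873-63814404, 532 bp). Its levels were 37.2, 31.2 and 52.3 CPM in G, 29.6, 22.3 and 30.0 CPM in GM, 34.1, 98.8 and 57.4 CPM in GT, and 48.2, 173 and 85.2 CPM in GMT. Without Gata4 they were 15.6, 16.9 and 12.3 CPM in the control, 25.1, 24.8 and 8.87 CPM in M, 70.4, 17.9 and 26.6 CPM in T, and 53.4, 38.7 and 23.5 CPM in MT. The 3 control libraries were below all libraries with Gata4, but T replicate 1 and MT replicate 1 were above most of them. For how many of all regions the control lies below in this way was not counted. GMT replicate 2 stood highest.

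Gata4 region 1 was called higher both on adding Gata4, by 0.88 ± 0.28 (adjusted p = 0.0194), and on adding Tbx5, by 1.18 ± 0.27 (adjusted p = 0.00106). On adding Mef2c its log2 fold change was 0.10 ± 0.27 (adjusted p = 0.832). The Gata4 call was lost without GMT replicate 2 (0.66, adjusted p = 0.0837), without GT replicate 2 (0.72, adjusted p = 0.0567) and without T replicate 2 (0.77, adjusted p = 0.0521), while the Tbx5 call held under all 31 alternatives. Of the single additions, Tbx5 added to GM was called (1.92 ± 0.46, adjusted p = 0.00499), though not without GMT replicate 2 (1.27, adjusted p = 0.126). Against the control the region was higher in 4 of 7 groups, G (1.47 ± 0.51, adjusted p = 0.0429), GT (2.11 ± 0.50, 0.00401), MT (1.44 ± 0.51, 0.036) and GMT (2.83 ± 0.50, 0.000109). GMT had the highest mean, 102 ± 64.0 CPM, against 14.9 ± 2.39 CPM in the control (SD, n = 3). The GMT call held under all 31 alternatives. That for GT was lost without GT replicate 2 (adjusted p = 0.07). That for G was lost without G replicate 1 (0.0902), G replicate 3 (0.207), each control replicate (0.0903 to 0.175), M replicate 2 (0.0503) or GMT replicate 3 (0.0508), and without the filter (0.062). That for MT was lost without the filter (0.0857) and without any of 10 libraries (each control replicate, M replicates 1 and 2, GM replicates 2 and 3, GT replicate 3, MT replicates 1 and 2), with adjusted p up to 0.233. Whether Gata4 region 1 lies in Gata4 or nearer to a neighbouring gene was not determined.

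Gata4 region 2 (chr14:63824057-63824891, 835 bp), the widest of the 18, was called higher on adding Mef2c and not on adding Gata4 or Tbx5. Libraries with Mef2c had 81.9, 61.0 and 57.7 CPM in M, 92.1, 74.5 and 41.1 CPM in GM, 51.5, 30.3 and 37.7 CPM in MT, and 52.2, 95.4 and 72.4 CPM in GMT. Those without it had 20.0, 36.5 and 21.8 CPM in the control, 31.7, 51.9 and 32.5 CPM in G, 29.3, 21.5 and 26.6 CPM in T, and 44.2, 33.6 and 43.7 CPM in GT. The M and GMT libraries were above all those without Mef2c, and GM and MT overlapped with them. The lowest GMT library, at 52.2 CPM, was close to G replicate 2, at 51.9 CPM. The share of all regions with such an order was not counted. Adding Mef2c raised the region by 0.83 ± 0.21 (adjusted p = 0.00413), a call that held under all 31 alternatives. Adding Gata4 gave 0.53 ± 0.21 (adjusted p = 0.0651, 0.04 without GM replicate 3 and 0.0414 with scaling by totals alone) and Tbx5 -0.17 ± 0.20 (adjusted p = 0.575). Whether the effects of Mef2c and Gata4 differ was not tested, and no single addition of Mef2c was called (adjusted p = 0.117 to 0.322). The region was higher than the control in M (1.34 ± 0.37, adjusted p = 0.0102), GM (1.40 ± 0.36, 0.01) and GMT (1.51 ± 0.37, 0.00229). The M call was lost without control replicate 1 (0.0522), control replicate 3 (0.0804) or M replicate 1 (0.0747), and the GM call without control replicate 1 (0.0529), control replicate 3 (0.0882) or GM replicate 1 (0.144).

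Gata4 region 8, the most accessible of the window, was open in every group. Its means ran from 78.0 ± 30.8 CPM in GMT to 129 ± 31.7 CPM in M, with 107 ± 30.1 CPM in the control (SD, n = 3), and group ranges overlapped. Log2 fold changes on adding Gata4, Mef2c and Tbx5 were -0.29 ± 0.19, -0.24 ± 0.19 and -0.23 ± 0.19, with adjusted p = 0.279, 0.392 and 0.373. Among the other 9 regions of the window, chosen after their values were seen, region 7 (chr14:63863413-63863722) was called higher in GMT against the control (1.06 ± 0.41, adjusted p = 0.0434). That call was lost under 21 of 31 alternatives, among them leaving out any replicate of the control, G, M or T, GM replicate 2 or 3, GT replicate 3, or MT replicate 2 or 3. Without GMT replicate 2 the log2 fold change was 0.40 (adjusted p = 0.554). Region 12 (chr14:63890492-63890698) was called lower in T (-1.46 ± 0.54, adjusted p = 0.0427), not without control replicate 2 (0.192), control replicate 3 (0.111), T replicate 1 (0.174) or T replicate 2 (0.127), nor by DESeq2 (0.0574). Regions 3, 6, 9 and 10 were called in none of the 19 comparisons, with means over the 24 libraries of 11.86, 10.25, 23.76 and 33.93 CPM. Regions 4, 5 and 11 were not tested, with at most 24, 19 and 17 counts in any library. Means of region 11 were 10.9 CPM in M, 9.07 in GM, 8.90 in MT and 6.84 in GMT. In the groups without Mef2c they were 2.23 CPM in the control, 1.17 in G, 1.61 in T and 4.68 in GT. Libraries with and without Mef2c overlapped there, as GMT replicate 1 had 0 counts.

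The other 3 tested regions of the Mef2c window rose less than Mef2c region 5 and each in its own pattern. Mef2c region 1 (chr13:83600860-83601062, 203 bp) was high in M alone. It had 45.1, 52.8 and 37.7 CPM there, against 5.26, 19.9 and 7.90 CPM in GM, 12.7, 15.2 and 9.42 CPM in MT, and 8.03, 1.29 and 8.92 CPM in GMT. Libraries without Mef2c had 15.6, 5.21 and 3.78 CPM in the control, 4.53, 0 and 1.41 CPM in G, 2.93, 3.59 and 3.80 CPM in T, and 1.26, 0.932 and 2.30 CPM in GT. The 3 M libraries were above all 21 others. How many of all regions separate M in this way was not counted, so this describes 1 region. M was higher than the control by 2.64 ± 0.57 (adjusted p = 0.00155), and adding Mef2c raised the region by 1.91 ± 0.46 (adjusted p = 0.00237). Without the filter these were 2.57 ± 0.55 (adjusted p = 0.00124) and 1.85 ± 0.45 (adjusted p = 0.00276). Adding Gata4 lowered it by the mean of 3 backgrounds (-1.54 ± 0.46, adjusted p = 0.0149, and -1.52 ± 0.45, adjusted p = 0.0163, without the filter), where 7.25% of all regions tested were lower. These 3 calls of the fit with the filter held under every alternative that could be fitted. For adding Mef2c, the fit of only the compared groups, which leaves out M, did not test this region. No single addition of Mef2c was called. Values were 1.93 ± 0.73 on G (adjusted p = 0.108), 1.80 ± 0.75 on T (0.145) and 2.01 ± 0.90 on GT (0.18). Of all regions, 7.27%, 6.46% and 6.96% were called there. Counts were 1 in each GT library and 1 to 2 in the T libraries.

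The falls at Mef2c region 1 were largest on the background of M, which also had the highest starting level. Library levels were 37.7 to 52.8 CPM in M, but 0 to 4.53 CPM in G and 2.93 to 3.8 CPM in T. They were 5.26 to 19.9 CPM in GM and 9.42 to 15.2 CPM in MT. Backgrounds other than M thus left less room for a fall, so the order of the falls cannot show whether effects differ. Gata4 added to M gave -2.24 ± 0.56 (adjusted p = 0.0175) and Tbx5 added to M -1.84 ± 0.53 (adjusted p = 0.0176), where 4.52% and 12.5% of all regions tested were called. The region passed the filter mainly through the M libraries, the group from which these falls start. Without the filter they were -2.23 ± 0.53 (adjusted p = 0.0139) and -1.90 ± 0.51 (adjusted p = 0.0129). The first call was lost without M replicate 1 (0.0509), M replicate 2 (0.0948), GM replicate 1 (0.118) or GM replicate 3 (0.0962), and the second without M replicate 2 (0.0785) or MT replicate 1 (0.0719). On the other backgrounds the log2 fold changes were -1.30 ± 1.04 for Gata4 added to T, -1.09 ± 0.65 for Gata4 added to MT, -0.77 ± 0.97 for Tbx5 added to G and -0.69 ± 0.68 for Tbx5 added to GM. None of these was called, where 12.7%, 0.986%, 2.99% and 13.7% of all regions were. The mean over 3 backgrounds for Tbx5 was -1.10 ± 0.44 (adjusted p = 0.0633). It became a call with RLE size factors (adjusted p = 0.0484) and without control replicate 1, G replicate 2, T replicate 1 or 3, GM replicate 1 or 3, GT replicate 3, or GMT replicate 1 or 3 (0.0315 to 0.0483). Whether these changes differ between backgrounds was tested as 6 differences of additions over the 14 regions: of 84 tests, edgeR called 0, with 3 at an unadjusted p below 0.05 and a lowest adjusted p of 0.443, and DESeq2 also called 0. Over all regions these differences called at most 0.0146%, and 0.00488% for Tbx5 added to G less Tbx5 added to M.

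Mef2c region 3 (chr13:83743138-83743443, 306 bp) was open in the control and had its lowest means in G, T and GT. The GMT mean, 57.6 CPM, was close to the GT mean, 56.4 CPM. Its levels were 118, 106 and 80.4 CPM in the control, 22.7, 54.5 and 28.3 CPM in G, 8.79, 26.9 and 98.7 CPM in T, and 34.1, 52.2 and 82.7 CPM in GT. With Mef2c they were 96.9, 72.4 and 135 CPM in M, 55.2, 146 and 130 CPM in GM, 61.0, 126 and 158 CPM in MT, and 84.3, 36.1 and 52.5 CPM in GMT. The G libraries lay below the control, an order not counted over all regions, and T replicate 3 lay far above the other T libraries. Adding Mef2c raised the region by 0.99 ± 0.29 (adjusted p = 0.0121), under all 31 alternatives. Of single additions, Mef2c added to G was called (1.72 ± 0.50, adjusted p = 0.0289), not without G replicate 1 (0.171), G replicate 3 (0.181), GM replicate 2 (0.121) or GM replicate 3 (0.108), while Mef2c added to GT gave -0.02 ± 0.50 (adjusted p = 0.99). G against the control had a log2 fold change of -1.62 ± 0.49 (adjusted p = 0.0232), a call lost without control replicate 1 (0.0575), control replicate 2 (0.0662), G replicate 1 (0.142) or G replicate 3 (0.112). T had -1.10 ± 0.49 (adjusted p = 0.102), and -2.36 (adjusted p = 0.00173) without T replicate 3. It was also called with the replicate block (-1.29, adjusted p = 0.0405) and with only the compared groups (-1.11, adjusted p = 0.0382). M stood at 0.997-fold of the control (adjusted p = 0.996). GM (0.10 ± 0.46, adjusted p = 0.931), MT (0.16 ± 0.46, 0.846) and GMT (-0.89 ± 0.49, 0.156) were not called against the control either. The rise on adding Mef2c was thus measured from groups without it, and no group with Mef2c was called above the control.

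Mef2c region 4 (chr13:83792058-83792453, 396 bp) was lowest in T. It had 5.86, 3.59 and 20.9 CPM there, against 57.9, 32.6 and 31.2 CPM in the control and 51.8, 71.4 and 73.2 CPM in M. The T libraries were all below the control libraries, an order whose share among all regions was not counted. The other group means were 27.4 ± 19.5 CPM in G, 49.4 ± 22.3 CPM in GM, 24.4 ± 13.1 CPM in GT, 32.5 ± 14.3 CPM in MT and 31.5 ± 18.8 CPM in GMT. T against the control was -1.90 ± 0.60 (adjusted p = 0.018), not called without control replicate 1 (0.0611), T replicate 1 (0.0731) or T replicate 2 (0.123). Adding Mef2c gave 0.96 ± 0.32 (adjusted p = 0.0319), lost under 9 of 31 alternatives, with the highest adjusted p (0.106) without T replicate 2. The 8 libraries among these were G replicates 1 and 3, T replicates 1 and 2, GM replicate 2, GT replicate 2, MT replicate 3 and GMT replicate 1 (adjusted p = 0.0613 to 0.106). No single addition of Mef2c was called, with 0.97 ± 0.51 on G (adjusted p = 0.299), 1.60 ± 0.61 on T (0.111) and 0.30 ± 0.55 on GT (0.8). Nor was any group with Mef2c called against the control, at 0.73 in M, 0.28 in GM, -0.31 in MT and -0.48 in GMT (adjusted p = 0.37 to 0.788). Adding Tbx5 gave -0.63 ± 0.30 (adjusted p = 0.123), called without GT replicate 3 (0.0427) or GMT replicate 1 (0.039). Mef2c region 2 (chr13:83680608-83680808) had at most 5 counts in any library and was not tested.

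**Figure D4:**
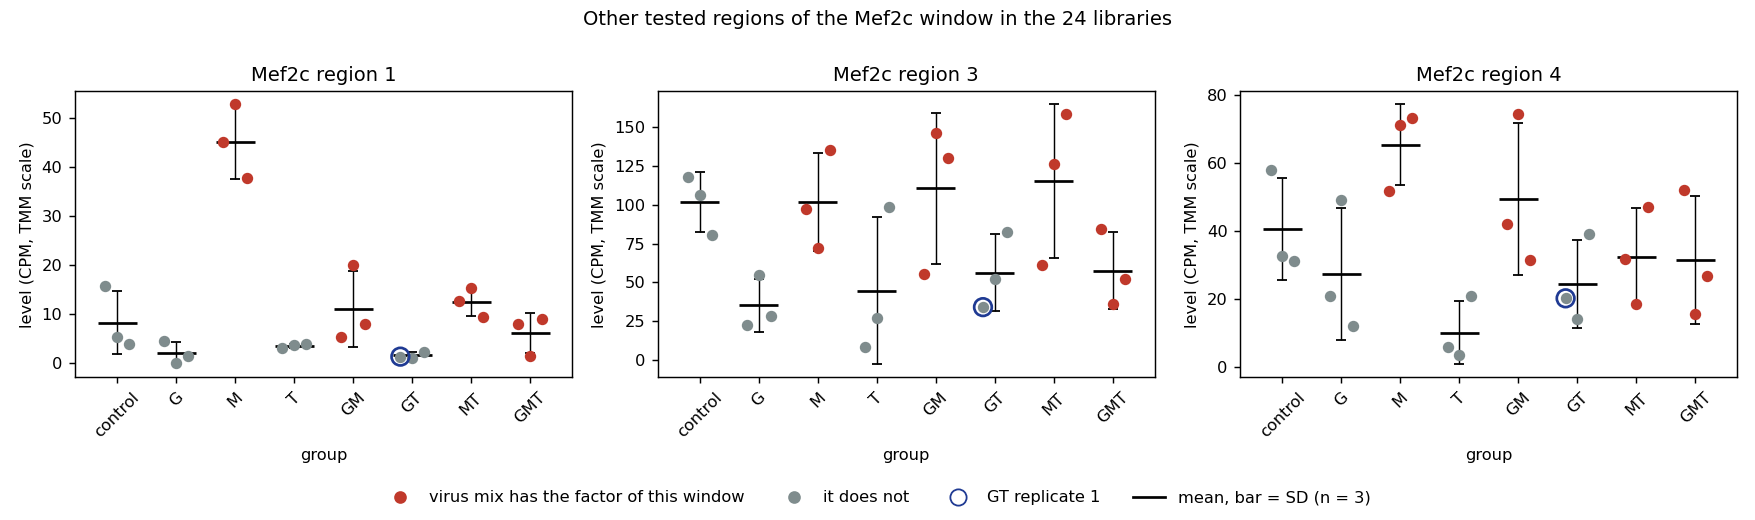
Level (CPM, TMM scale) of the other tested Mef2c regions in each library, by group, with the mean and SD of 3 libraries and colours as for the plot of 1 region per window. In Mef2c region 1 the 3 M libraries (37.7 to 52.8 CPM) stand above all others, in Mef2c region 3 T replicate 3 (98.7 CPM) stands apart from the other T libraries, and in Mef2c region 4 the T libraries (3.59 to 20.9 CPM) lie below the control.

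Counted over the 3 windows, 2 of 14 tested regions were called in G against the control (15.7% of all regions tested), 3 in M (16.1%), 3 in T (25.1%), 2 in GM (12.2%), 1 in GT (18.9%), 3 in MT (24.7%) and 5 in GMT (33.5%). Of all regions, 9.61% were higher and 6.07% lower in G, 9.67% and 6.47% in M, 14.5% and 10.6% in T, and 8.50% and 3.75% in GM. In GT 13.1% were higher and 5.81% lower, in MT 17.5% and 7.20%, and in GMT 23.0% and 10.5%. The members' shares were close to those of all regions, or in GT under it, and these 7 comparisons share the same control libraries. All calls in M, GM, GT, MT and GMT were higher, whereas G had 1 higher and 1 lower and T 1 higher and 2 lower. Across factors that are not the window's own, adding Gata4 lowered 1 of 4 Mef2c regions (7.25% of all regions were lower), adding Mef2c raised 1 of 9 Gata4 regions (16.2% of all were higher and 4.58% lower), and adding Tbx5 raised 1 of 9 Gata4 regions (20.3% of all were higher) and called 0 of 4 Mef2c regions (edgeR, 2 at an unadjusted p below 0.05, and 0 by DESeq2), where 5.86% of all regions were lower. The Tbx5 region was called on adding neither Gata4 (-0.63 ± 0.33, adjusted p = 0.17) nor Mef2c (0.03 ± 0.31, adjusted p = 0.958), 0 calls at an unadjusted p below 0.05 in edgeR and 0 in DESeq2.

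Summed over the 5 regions of the Mef2c window, levels were 331 ± 75.6 CPM in M, 242 ± 50.8 in GM, 220 ± 46.5 in MT and 152 ± 57.2 in GMT, and 161 ± 45.9 in the control, 86.8 ± 36.5 in GT, 72.0 ± 39.3 in G and 65.0 ± 65.7 CPM in T (SD, n = 3). M lay above the control in every library, and GMT overlapped with it. At Gata4 the sums lay between 300 ± 68.4 CPM in MT and 423 ± 159 CPM in GMT, with 317 ± 37.9 CPM in the control, whose range each factor group's range overlapped.

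The regions elsewhere in the table most like these 3 were found by the root mean square distance of log2 CPM over the 24 libraries, each region taken around its own mean. For Mef2c region 5 they were chr8:3187465-3187714 (distance 0.58), chr15:27548996-27549292 (0.629) and chr4:64237548-64237799 (0.651), where the median distance to all regions was 1.98. Their means were 76.9 to 182 CPM with Mef2c and 5.53 to 18.4 CPM without. For Tbx5 region 1 they were chr7:88730662-88730875 (0.412), chr2:137490562-137491004 (0.421) and chr19:47990940-47991222 (0.441), with a median of 1.27. Their means were 25.7, 117 and 26.1 CPM with Tbx5 and 3.20, 27.0 and 5.71 CPM without, and GT replicate 1, one of the libraries used to choose them, had 7.58, 31.6 and 6.32 CPM. For Gata4 region 1 they were chr18:39513666-39513948 (0.447), chr18:60792760-60793060 (0.474) and chr18:61864496-61865102 (0.481), with a median of 1.11. These likenesses are descriptions of 24 libraries and were not tested.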

How the data were processed

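ATAC-seq counts of 24 libraries were analysed. Per the submitters' processing notes, reads were processed with Bowtie2, Picard and featureCounts on mm9, without versions. The deposited values are raw counts for each region, without normalisation by the authors. How regions were defined, and if pairs were counted once, is not given in the sources used here. The column of region widths, in bp, was deposited with them.

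Members were the regions overlapping 3 windows. Members, lists and tests were chosen with earlier results of these data known. Counts were filtered by filterByExpr (minimum count 10, minimum total 15), which kept 20494 regions (66.5%), scaled by TMM and fitted for 8 groups together with edgeR 4.0.16 in R 4.3.3, with DESeq2 1.42.0 as an alternative. The test was tried on simulated data. Named were regions separated by their own factor's label, up to 4 called regions per window and addition, the highest region of each window, and regions called in 4 or more comparisons with the control.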

Additional observations from a re-analysis of the deposited data

How the results depend on the processing

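The 31 alternatives were DESeq2, RLE size factors, scaling by totals alone, no filter, a minimum count of 20, the replicate block, only the compared groups, and leaving out each of 24 libraries. With only the compared groups, Mef2c regions called on adding Mef2c fell to 2 from 4, of 3 then tested, and regions called against the control rose to 5 in M, 5 in MT and 9 in GMT, from 3, 3 and 5. Without the filter, 2 Gata4 regions were called on adding Mef2c, against 1, and 1 region in G against the control, against 2. With total counts alone 2 Gata4 regions were called on adding Gata4, against 1, and with RLE size factors 1 Mef2c region on adding Tbx5, against 0. Leaving out 1 library gave 0 to 2 Gata4 regions called on adding Gata4, 1 to 2 on adding Mef2c and 1 to 2 on adding Tbx5, and 0 to 2 Mef2c regions on adding Tbx5. Against the control it gave 0 to 2 in G, 1 to 4 in T, 1 to 2 in GM, 1 to 2 in GT, 1 to 4 in MT and 3 to 7 in GMT. The shares of all regions called under these settings are not given here. These counts of members therefore cannot be set against all regions. The cause was not tested. No call of a single region was reversed, and DESeq2 kept 35 of 37. RLE and total counts moved the median of all regions by at most 0.081 (log2). The replicate number as a block changed 0 of 37 calls of single regions, and called Mef2c region 3 in T (-1.29, adjusted p = 0.0405). Same-numbered libraries correlated at -0.437 to 0.482 in their deviations, with 24 of 84 pairs over 0.1, and 11 of 24 libraries correlated best with their own number, so the numbers were not taken to pair samples. Counts of 1 to 38 per library at Tbx5 region 1, and of at most 24 at the untested regions, limit the precision of their levels.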
